A study of Mus musculus with 10 samples.

Results

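Adult mouse skeletal muscle was set against muscle cells differentiated in culture. The comparison uses 4 of the 10 arrays of the series, chosen by their group labels alone. The muscle group is 2 arrays of untreated muscle from male wild type mice of the C57BL/6J strain. It was set against 2 arrays of C2C12 cells with the genotype Fv2E-PERK, given vehicle (ethanol) and harvested 12 h later. The cells had been cultured in 10% fetal bovine serum and differentiated for 3 days in 2% horse serum. Fv2E-PERK is a form of the stress kinase PERK that the compound AP20187 can pair, and these cells received none of the compound. The wild type mice carry no transgene. The rest of the series is transgenic hSA::Fv2E-PERK muscle after vehicle or AP20187, also from male C57BL/6J mice, and AP20187-treated C2C12 cells. The vehicle-injected transgenic muscle (2 arrays, collected 12 h after injection) is used below where a result rests on which muscle is taken.

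The labels do not name the muscle sampled or the age of the mice. They also do not say whether the arrays of a group came from separate mice or cultures, so the p-values measure only the spread between these samples, which may be technical. Besides tissue against culture, the groups differ in transgene, vehicle, donor animal and scan session, and these cannot be told apart from the tissue. Wild type muscle had slide entry 1 and scan session 2 to itself. The C2C12 vehicle arrays had slide entry 2 and scan session 3. Slide entry 2 also held the transgenic muscle, scanned in session 1. The AP20187-treated C2C12 cells shared both the slide entry and the session of the C2C12 vehicle arrays. Some arrays of slide entry 2 had the same position entry as another array, so an entry may not be a single physical slide. C2C12 is a single mouse myoblast line, and a C2C12 culture holds myotubes together with cells that did not fuse. Muscle tissue holds vessels, nerve, fat, connective tissue and blood beside its fibres. In such mixed RNA, fewer cells of a type and less RNA per cell cannot be told apart.

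Skeletal muscle forms when myoblasts leave the cell cycle, fuse into myotubes and build sarcomeres, the repeating units of actin and myosin filaments. The order of the program is set by the MyoD family of transcription factors. Early myotubes use embryonic and cardiac forms of many contractile proteins. As a fibre is innervated and loaded, it replaces them by adult fast or slow forms, and it acquires the enzymes of glycogen use and oxidation on which contraction runs. The low-serum C2C12 culture is widely used as a model of the first of these steps.

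RNA was labelled with Cy3 and hybridised to Agilent mouse arrays with 1 colour. A level is a log2 intensity minus the array's own 75th percentile, so a level of 0 is a probe at that percentile, and a log2 difference is wild type muscle minus C2C12. Well above background were 51.8% and 53.1% of gene spots on the wild type muscle arrays, against 52.4% and 41.0% on the C2C12 arrays. The dimmest spot well above background had an intensity of 9.42 and 9.92 on the muscle arrays, against 23.5 and 32.4 on the C2C12 arrays. A gene that is dim in C2C12 therefore has a higher floor than a gene that is dim in muscle. Across the 19631 probes above background on all 4 arrays, the muscle arrays correlated at r = 0.996 with each other and the C2C12 arrays at 0.994, and muscle correlated with C2C12 at 0.810 to 0.816.

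Most of the transcriptome differed between the groups. Of 13836 genes tested with limma, 10919 (78.9%) passed a Benjamini-Hochberg adjusted p of 0.05, with 5337 (38.6%) higher and 5582 (40.3%) lower in muscle. The test took every gene above background on both arrays of either group. Of those, 3388 met this in 1 group only, so that they were bound to lean to that group, and counts and medians of lists that hold them describe those members rather than support a direction. The median log2 difference over all tested genes was -0.04 and the median standard error 0.168. The 2 muscle arrays did not overlap the 2 C2C12 arrays for 89.7% of tested genes. Because a call is so common here, counts are also given for calls of at least 4-fold, which 1661 genes (12.0%) passed as higher and 1883 (13.6%) as lower in muscle. Where a gene was not well above background on either array of a group, its fold is a bound, written "at least": the bright group's mean is set against the lowest signal called above background on the dim arrays, or the dim probe's own signal where that was higher. For each of the called genes the 2 muscle arrays lay together above or together below the 2 C2C12 arrays. The plot of muscle level against C2C12 level shows 4 of the gene lists described below.

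**Figure D1:**
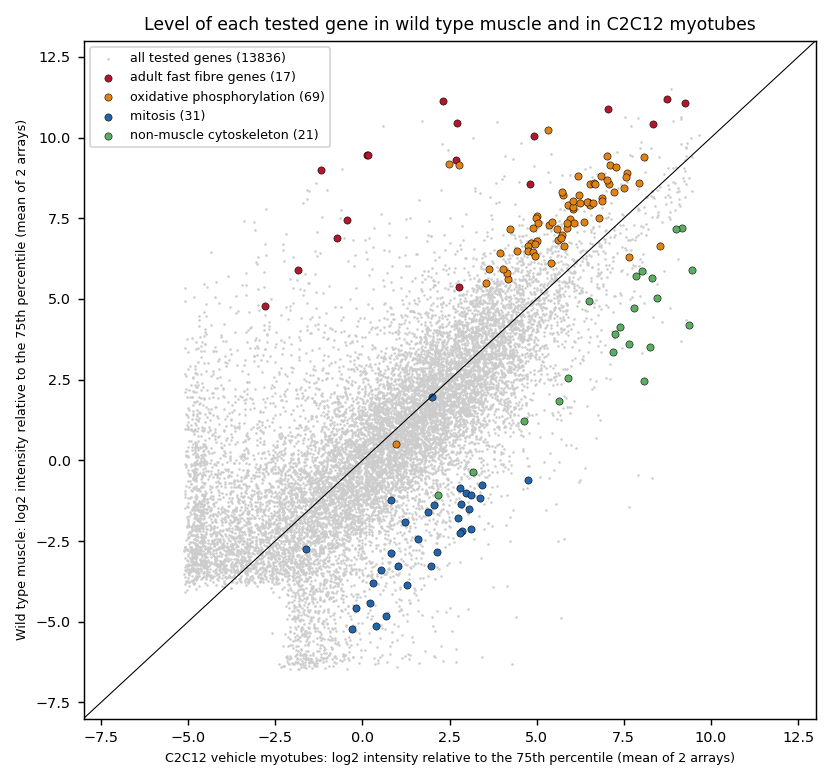
Each grey point is 1 of the 13836 tested genes, at its mean log2 level on the 2 C2C12 vehicle arrays (x axis) and the 2 wild type muscle arrays (y axis), and the black line marks equal levels. Adult fast fibre genes lie above the line, most oxidative phosphorylation genes lie closer above it, and mitosis and non-muscle cytoskeleton genes lie on or below it.

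Adult fast-fibre proteins separated the tissue from the culture most clearly among the contractile lists. Of 18 listed genes, 17 had a probe, 17 were tested, all of those were higher in muscle (38.6% of all tested genes were) and 16 were higher by at least 4-fold (12.0% of all). Their median log2 difference was 7.58, or 7.35 with bounds in place of differences, against -0.04 over all tested genes. Myh2, the myosin heavy chain of fast oxidative fibres, had levels of 9.18 and 8.82 in wild type muscle, against -1.50 and -0.89 in C2C12 myotubes. It had the largest log2 difference of any named gene measured on all 4 arrays, 10.19 ± 0.19 (SE, adjusted p = 2.23e-10, limma). Myh4, the myosin of the fastest fibres, had 10.55 and 10.37 in wild type muscle, against 2.71 and 2.72 in C2C12 myotubes, and was 215-fold higher. Myh1, the intermediate fast myosin, was already present in culture, with 8.80 and 8.33 in wild type muscle, against 4.82 on both arrays in C2C12 myotubes, and its difference was smaller (3.75).

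Proteins that buffer calcium or sit at the Z-disc of fast fibres differed as much as the myosins. Pvalb, the calcium buffer parvalbumin, had 11.23 and 11.06 in wild type muscle, against 2.40 and 2.22 in C2C12 myotubes, a 455-fold higher level (adjusted p = 5.70e-11). Mybpc2, fast myosin-binding protein C, had 9.56 and 9.39 in wild type muscle, against -0.09 and 0.37 in C2C12 myotubes. Myoz1, a Z-disc protein of fast fibres, had 9.54 and 9.40 in wild type muscle, against 0.18 and 0.12 in C2C12 myotubes. For all 3 genes both muscle arrays lay more than 8 log2 units above both C2C12 arrays. The smallest differences of the list belonged to thin-filament and light-chain genes that the myotubes already made: Tnnc2 (1.83), Myl1 (2.07) and Tnni2 (2.45). Tnni2, fast troponin I, reached 11.29 and 11.11 in wild type muscle, against 8.70 and 8.80 in C2C12 myotubes. Tnnt3, fast troponin T, differed by 3.85 ± 0.19 (SE), with 1 of the C2C12 arrays in the fit because a spot flag removed the other.

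To show the regulatory sequence in front of such genes, the 250 bases before the transcription start are printed for 3 genes that were higher in muscle and for the embryonic myosin Myh3, which was lower. Sequences are from RefSeq (build GRCm38.p6) in the direction of transcription, 5′ to 3′. Capitals mark CANNTG (the E-box bound by MyoD-family factors, which reads as the same pattern on both strands) and the MEF2 site.
Myh4, chr11:67237562-67237811, plus strand: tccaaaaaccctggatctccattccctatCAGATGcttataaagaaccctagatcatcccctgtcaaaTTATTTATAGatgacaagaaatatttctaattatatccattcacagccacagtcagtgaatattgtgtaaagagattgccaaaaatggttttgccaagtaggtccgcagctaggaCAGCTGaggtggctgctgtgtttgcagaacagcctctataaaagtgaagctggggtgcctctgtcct
Pvalb, chr15:78206401-78206650, minus strand: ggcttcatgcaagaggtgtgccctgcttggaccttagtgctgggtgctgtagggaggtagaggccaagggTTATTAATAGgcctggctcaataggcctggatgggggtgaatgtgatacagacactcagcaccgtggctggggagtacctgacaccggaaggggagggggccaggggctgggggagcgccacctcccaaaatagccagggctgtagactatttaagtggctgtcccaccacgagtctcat
Acta1, chr8:123894776-123895025, minus strand: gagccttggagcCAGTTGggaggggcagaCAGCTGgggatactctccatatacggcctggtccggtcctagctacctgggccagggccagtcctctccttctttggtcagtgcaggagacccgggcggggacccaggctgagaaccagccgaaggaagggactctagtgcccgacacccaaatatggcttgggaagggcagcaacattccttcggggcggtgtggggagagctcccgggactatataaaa
Myh3, chr11:67078050-67078299, plus strand: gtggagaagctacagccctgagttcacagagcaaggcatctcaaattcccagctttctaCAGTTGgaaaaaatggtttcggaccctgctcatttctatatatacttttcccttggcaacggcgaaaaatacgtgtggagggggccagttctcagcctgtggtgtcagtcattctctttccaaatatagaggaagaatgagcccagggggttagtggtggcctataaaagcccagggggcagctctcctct
The Pvalb sequence is that of 1 of its 2 listed starts, and the promoter of the other held no MEF2 match and 1 CANNTG match. Of the fast-fibre list, 12 genes with 13 promoters matched the table. CANNTG was found in 10 of those 13 (76.9%) and in 66.2% of all 32851 promoters, so that its share was close to that of promoters in general. The MEF2 site, named after the transcription factor family, was found in 3 of 13 (23.1%) and in 2.92% of all promoters. No CANNTG match overlapped a MEF2 match in those 13. A match is only a run of letters in this window.

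The isoforms of the embryonic program ran the other way, with exceptions. Of 12 tested genes on the list of developmental isoforms, 10 were lower in muscle, 8 of them by at least 4-fold, and 2 were higher. Myh3, embryonic myosin heavy chain, had -0.18 and -0.93 in wild type muscle, against 8.19 and 8.40 in C2C12 myotubes (log2 difference -8.85 ± 0.21 SE, adjusted p = 6.36e-10). Tnnt2, the cardiac troponin T of early muscle, had -0.69 and -0.22 in wild type muscle, against 7.84 and 8.00 in C2C12 myotubes, and was 332-fold lower. Myl4, the embryonic and atrial light chain, was 43.2-fold lower, and Acta2, smooth muscle alpha-actin, 30.4-fold lower. Nes, the intermediate filament nestin of immature muscle, had 3.14 and 2.83 in wild type muscle, against 7.11 and 7.10 in C2C12 myotubes.

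Myh8, the perinatal myosin heavy chain, did not follow Myh3. It had 5.60 and 5.36 in wild type muscle, against -1.86 and -1.18 in C2C12 myotubes (128-fold higher, adjusted p = 2.29e-09). Its other probe above background was higher in muscle too, by 5.50. Whether RNA of the closely related adult myosins binds these probes was not tested. Actc1, cardiac alpha-actin, which myotubes make before skeletal actin, was nearly level, with 9.69 and 9.70 in wild type muscle, against 9.11 and 9.45 in C2C12 myotubes. Its log2 difference of 0.42 (adjusted p = 0.0371) was -0.70 after quantile normalization, -0.60 after normexp background correction and -2.76 with transgenic vehicle muscle in place of wild type, so that it has no settled direction. Acta1, skeletal alpha-actin, had 11.22 and 11.05 in wild type muscle, against 8.56 and 8.72 in C2C12 myotubes.

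**Figure D2:**
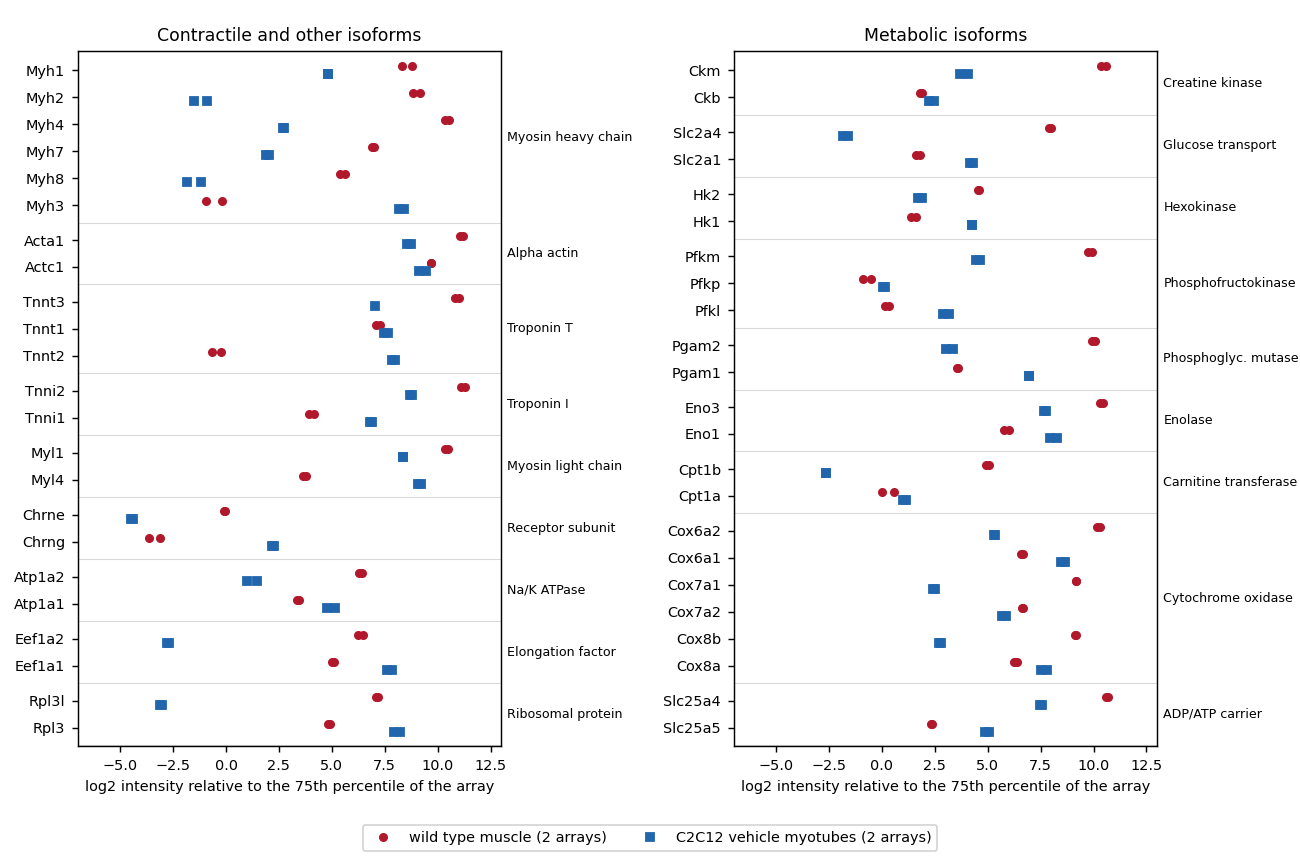
Log2 level of each isoform on every array (x axis), with red circles for the 2 wild type muscle arrays and blue squares for the 2 C2C12 vehicle arrays, and families named at the right. Adult forms sit to the right in muscle, while Myh3, Tnnt2, Myl4, Chrng, Pgam1 and Rpl3 sit to the right in C2C12, and Actc1 and Tnnt1 nearly coincide.

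The same opposition appeared within families of enzymes and other proteins. Of 24 adult-muscle isoforms, 23 were higher in muscle, each by at least 4-fold, and Tnnt1, slow troponin T, was the exception, with 7.09 and 7.27 in wild type muscle, against 7.48 and 7.64 in C2C12 myotubes (log2 difference -0.38, but 0.42 with transgenic vehicle muscle in place of wild type, and no call in the authors' deposited values or without either wild type array). Of 22 partner isoforms used by other or younger cells, 19 were lower in muscle and 3 (Myh8, Cox7a2 and Actc1, the last with no settled direction) were higher. Rpl3l, a ribosomal protein form of muscle, had 7.18 and 7.10 in wild type muscle, against -3.13 and -3.04 in C2C12 myotubes, and was at least 922-fold higher, while its general partner Rpl3 had 4.93 and 4.80 in wild type muscle, against 7.95 and 8.20 in C2C12 myotubes. Eef1a2, the elongation factor form of muscle and neurons, had 6.49 and 6.24 in wild type muscle, against -2.71 and -2.81 in C2C12 myotubes, while the general Eef1a1 was 6.39-fold lower. In both pairs the muscle form was higher in tissue and the general form higher in culture.

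Slow-fibre genes split. Of 15 tested, 10 were higher and 4 lower in muscle (38.6% and 40.3% of all tested genes were), with a median log2 difference of 2.54. The essential light chain Myl3 had 8.44 and 8.32 in wild type muscle, against -1.47 and -1.72 in C2C12 myotubes, and the regulatory light chain Myl2 had 7.06 and 7.11 in wild type muscle, against -0.87 and -1.73 in C2C12 myotubes. Myh7, slow myosin heavy chain, was 31.8-fold higher (adjusted p = 4.20e-10). Slow thin-filament and calcium-store genes were instead the ones lower in muscle: Casq2, slow calsequestrin (-4.06), Tnnc1, slow troponin C (-3.11), and Tnni1, slow troponin I (-2.80). Tnni1 had 3.94 and 4.17 in wild type muscle, against 6.80 and 6.91 in C2C12 myotubes. The other gene called lower, Tnnt1, has no settled direction, as given above.

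Proteins common to all sarcomeres were higher in muscle throughout the list, by less than the fast isoforms. All 24 tested were called higher, 17 by at least 4-fold, with a median log2 difference of 2.53. Myot, the Z-disc protein myotilin, had 8.16 and 8.03 in wild type muscle, against -0.99 and -2.20 in C2C12 myotubes, with 1 of the C2C12 arrays above background. Tcap, which caps titin at the Z-disc, was 446-fold higher, and Ttn, titin itself, 22.2-fold higher. Xirp2, a protein of intercalated discs and muscle attachment sites, was at least 227-fold higher. Klhl41 (0.69) and Lmod3 (0.86), which act in assembling and holding thin filaments, differed least. Tpm1 and Pdlim7 had probes of opposite sign (-3.81 to 2.71 and -3.16 to 2.47), so their direction depends on the probe.

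The machinery that links the nerve impulse to calcium release was higher in tissue, and most subunits of the acetylcholine receptor were not. Of 23 tested excitation-contraction genes, 21 were higher. Ryr1, the calcium release channel, had 7.58 and 7.29 in wild type muscle, against 1.93 and 1.89 in C2C12 myotubes (46-fold higher). Cacna1s, the voltage sensor that opens it, was 18.3-fold higher. Scn4b, a sodium channel subunit, was 169.6-fold higher. Rrad, a small GTPase that restrains calcium channels, was the 1 called lower, 25.1-fold lower, and Kcnj2 did not pass (0.08, adjusted p = 0.799).

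Of 14 tested neuromuscular junction genes, 7 were lower and 4 higher in muscle, where 40.3% of all tested genes were lower and 38.6% higher. With transgenic vehicle muscle in place of wild type, 6 were lower and 5 higher, with a median of -0.11. Chrng, the fetal gamma subunit of the acetylcholine receptor, had -3.62 and -3.12 in wild type muscle, against 2.15 and 2.25 in C2C12 myotubes, and was 47.6-fold lower (adjusted p = 1.44e-08). Chrne, the adult epsilon subunit that replaces it at innervated synapses, had -0.07 and -0.11 in wild type muscle, against -4.40 and -4.52 in C2C12 myotubes, and was at least 6.42-fold higher. The shared subunits Chrna1 and Chrnd were 24.3-fold lower and 24.1-fold lower. Ache, acetylcholinesterase, ran with Chrne (3.48, 1 of 2 C2C12 arrays above background), and Musk, the synapse-organising kinase, did not pass (-0.36, adjusted p = 0.0837).

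The transcription factors of the muscle lineage differed member by member, with Myog higher in culture and Myf6 higher in tissue. Myog, myogenin, which drives terminal differentiation, had 0.36 and 1.00 in wild type muscle, against 6.71 and 6.67 in C2C12 myotubes (log2 difference -6.01 ± 0.18 SE, adjusted p = 2.89e-09). Myf6, the family member of mature fibres, had 4.82 and 4.67 in wild type muscle, against -3.20 and -4.42 in C2C12 myotubes, at least 179.8-fold higher with both C2C12 arrays below background. Myod1 differed little, with 1.83 and 1.90 in wild type muscle, against 2.56 and 2.43 in C2C12 myotubes (-0.64, adjusted p = 7.77e-04). Myf5 was not well above background on enough arrays to be tested in either group.

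Among the cofactors, Mef2c, a partner of the MyoD family, was at least 37.3-fold higher. Mef2a was called higher (1.12), but its 2 probes gave -1.50 and 1.12. The E-proteins Tcf3 and Tcf12, which pair with the MyoD family, were lower (-1.53 and -1.22), and Tead4 was lower by more (-3.47). Id1, which blocks such pairing, was 4.21-fold higher, and Id3 1.66-fold higher (no call with transgenic vehicle muscle in place of wild type). Pax7, the factor of satellite cells, was at least 2.35-fold higher, with -1.58 and -1.51 in wild type muscle, against -3.75 and -3.28 in C2C12 myotubes, and it also lost its call with transgenic vehicle muscle. Eya4, a transcriptional cofactor, did not pass (-0.04, adjusted p = 0.834). Over the whole list of 20 tested, 10 were higher, 6 lower and 4 not called, where 38.6% of all tested genes were higher and 40.3% lower.

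Cell surface proteins of fusing myoblasts were mostly lower in tissue. Of 19 genes with a probe, 16 were tested, 12 were lower (7 by at least 4-fold) and 1 was higher. Mymk, myomaker, the membrane protein required for fusion, had -2.33 and -2.70 in wild type muscle, against 5.60 on the 1 array with a value in C2C12 myotubes, where a spot flag removed the other array (log2 difference -8.12). Cdh2 and Cdh15, adhesion molecules of myoblasts, were 31.3-fold lower and 7.61-fold lower. Dysf, the membrane repair protein dysferlin of mature fibres, was the 1 higher, 4.6-fold higher.

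Genes of energy metabolism differed by isoform, and most glycolysis genes were higher in muscle. Of 26 tested glycolysis genes, 19 were higher and 6 lower in muscle, with a median log2 difference of 2.26. Slc2a4, the insulin-responsive glucose transporter GLUT4, had 8.00 and 7.91 in wild type muscle, against -1.58 and -1.84 in C2C12 myotubes (9.67 ± 0.12 SE, adjusted p = 4.34e-11). Slc2a1, the transporter of most cells, was 5.86-fold lower. Pfkm and Pgam2, the muscle forms of phosphofructokinase and phosphoglycerate mutase, were 39.3-fold higher and 112-fold higher. The 6 lower genes were all the non-muscle forms Pgam1, Pfkl, Hk1, Slc2a1, Eno1 and Pfkp, of which Pfkp lost its call with transgenic vehicle muscle in place of wild type. Gpd1, which passes cytosolic reducing power to mitochondria, was among the largest differences of all (9.89).

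Glycogen genes were higher nearly as a block, with 15 of 17 higher (13 by at least 4-fold) and a median of 3.90. Pygm, the muscle phosphorylase, had 9.70 and 9.53 in wild type muscle, against 2.32 and 2.58 in C2C12 myotubes. Ppp1r3c, a subunit that directs phosphatase to glycogen, was at least 666-fold higher, and the muscle subunit Ppp1r3a at least 151-fold higher. Phka2, the liver form of a phosphorylase kinase subunit, was lower (-2.05) while the muscle form Phka1 was higher (6.24). In the creatine system, Ckm, muscle creatine kinase, had 10.59 and 10.37 in wild type muscle, against 3.70 and 4.05 in C2C12 myotubes, and Ckmt2, its mitochondrial partner, had 9.01 and 9.06 in wild type muscle, against -0.42 and -0.75 in C2C12 myotubes. Ampd1, muscle AMP deaminase, had 7.39 and 7.37 in wild type muscle, against -2.70 and -3.54 in C2C12 myotubes, with 1 C2C12 array above background. Ckb, the brain form, was lower by little (-0.50, adjusted p = 0.00631, and no call with transgenic vehicle muscle in place of wild type).

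Most oxidative genes were higher in tissue. All 20 citrate cycle genes were higher (median 2.13), as were 31 of 35 fatty acid genes (median 2.24) and 66 of 69 oxidative phosphorylation genes (median 1.74). At least 4-fold higher were 13 citrate cycle genes, 21 fatty acid genes and 18 oxidative phosphorylation genes. Cox7a1, Cox8b and Cox6a2, the heart and muscle subunits of cytochrome oxidase, led the last list. Cox7a1 had 9.15 and 9.19 in wild type muscle, against 2.53 and 2.42 in C2C12 myotubes, 104-fold higher. Their general partners Cox6a1 and Cox8a were 3.75-fold lower and 2.54-fold lower, while Cox7a2 was 1.83-fold higher.

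In fatty acid use, Cpt1b, the muscle form of the enzyme that admits fatty acids to mitochondria, was at least 174-fold higher, and Cpt1a, the liver form, was lower (-0.79). Lpl, which releases fatty acids from circulating fat, had 6.20 and 6.13 in wild type muscle, against -1.59 and -2.91 in C2C12 myotubes, with 1 C2C12 array above background. Pdk4, which spares glucose by slowing pyruvate dehydrogenase, differed between the muscle arrays as well, with 5.23 and 6.82 in wild type muscle, against 0.88 and 0.79 in C2C12 myotubes. Ppargc1a, the coactivator PGC-1alpha, was 16.9-fold higher, and its relative Ppargc1b did not pass (0.35, adjusted p = 0.266). Ucp3 had 2 probes that gave 0.02 and 6.00 and no call on the brighter.

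Synthesis of sterols was the metabolic list that was lower in tissue. Of 21 tested genes of sterol and fat synthesis, 17 were lower, 14 by at least 4-fold, with a median of -2.85. Sqle, squalene epoxidase, had 0.22 and -0.31 in wild type muscle, against 5.62 and 5.64 in C2C12 myotubes (51-fold lower, adjusted p = 2.19e-09). Lss and Cyp51, later enzymes of the same pathway, were 21.3-fold lower and 18.5-fold lower. Scd1, a fatty acid desaturase, was the 1 gene called higher (1.18), with 5.13 and 4.34 in wild type muscle, against 3.51 and 3.61 in C2C12 myotubes, while its relative Scd2 was 9.24-fold lower.

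**Figure D3:**
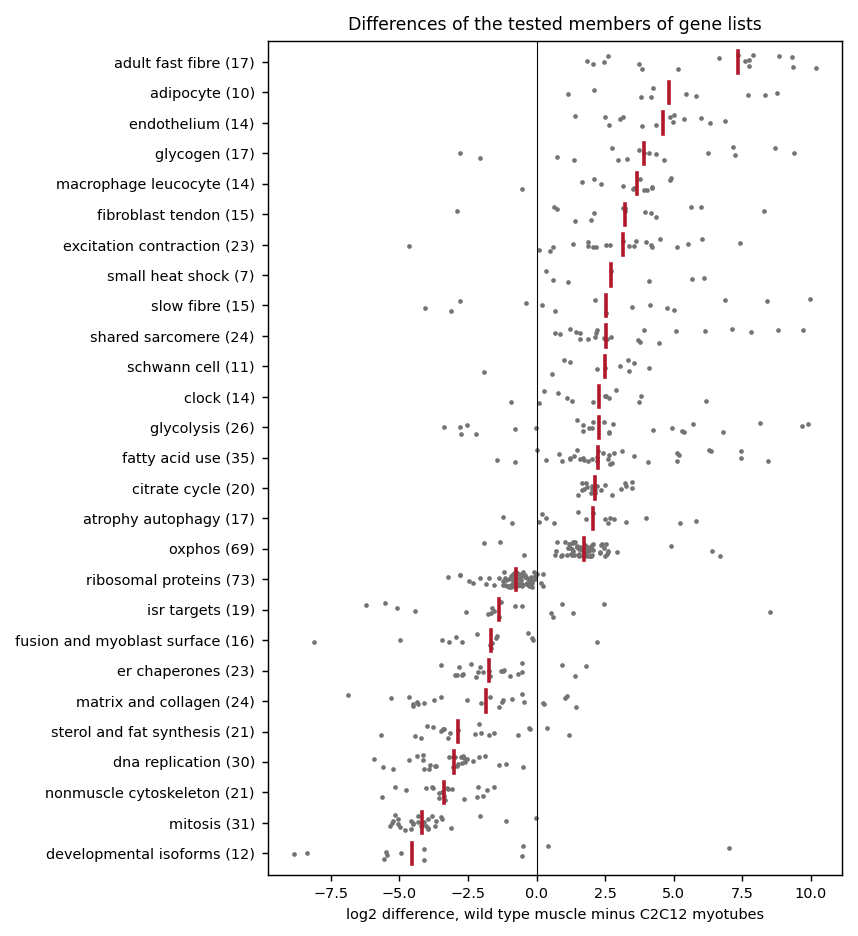
Each point is the log2 difference, wild type muscle minus C2C12, of 1 tested member of the list named at the left (number of plotted genes in brackets), and the red bar is the median. Bounds are plotted for genes below background in 1 group, and genes whose bound gave no fold are left out. Of the lists shown, adult fast fibre genes have the highest median and developmental isoforms the lowest.

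Most marker genes of endothelial, blood, fat, immune and nerve sheath cells were higher in the tissue, while smooth muscle and satellite cell genes went both ways. Only 5 endothelial, 2 macrophage, 2 adipocyte and 2 erythroid genes were above background on all 4 arrays, and those were all called higher. For connective tissue and Schwann cell genes these were 10 and 7, with 9 and 6 called higher. The other tested members passed the filter through 1 group only and were bound to lean to it, so the counts below describe them. All 14 endothelial genes were higher in muscle, 13 by at least 4-fold. Robo4, a receptor of vessel lining, had 3.31 and 3.10 in wild type muscle, against -4.93 and -4.32 in C2C12 myotubes, at least 63.1-fold higher, and Cdh5, the junction protein VE-cadherin, was at least 41.7-fold higher. The summed endothelial level, on a linear scale with the 75th percentile as 1, was 222 and 195 on the wild type muscle arrays, against 13.9 and 15.8 on the C2C12 arrays. Kdr, a receptor for VEGF, had the smallest difference of the list (1.40), with 5.05 and 4.76 in wild type muscle, against 3.38 and 3.63 in C2C12 myotubes, although its other probe gave a difference of 6.80.

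Most other non-fibre lists were also higher. Of 14 tested macrophage genes 13 were higher, and C1qc, a complement subunit made by macrophages, was at least 29.4-fold higher. H2-Ab1, an MHC class II chain of antigen-presenting cells, was at least 123-fold higher. It belongs to a separate list of antigen presentation and interferon genes, which split. Of 15 tested there, 6 were higher and 7 lower, with a median of -0.06, where 38.6% of all tested genes were higher and 40.3% lower. The summed macrophage level was 50.7 and 48 on the wild type muscle arrays, against 3.28 and 2.67 on the C2C12 arrays. All 11 adipocyte genes were called higher, with Fabp4, a fatty acid carrier, at 6.38 and 6.24 in wild type muscle, against -1.76 and -2.24 in C2C12 myotubes, with 1 C2C12 array above background. For Lep, leptin, the bound gave no fold, and the call was lost without either wild type array. The adipocyte sum was 277 and 219 on the wild type muscle arrays, against 2.61 and 2.48 on the C2C12 arrays. Among connective tissue genes 14 of 15 were higher. Thbs4, a tendon matrix protein, was at least 313-fold higher, and Scx, the tendon transcription factor, was the 1 lower (-2.91). Of 11 Schwann cell genes 10 were higher. The summed Schwann cell level was 41.7 and 35.3 on the wild type muscle arrays, against 14.7 and 15.1 on the C2C12 arrays, and that of connective tissue genes 508 and 507 on the wild type muscle arrays, against 146 and 177 on the C2C12 arrays.

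Lymphocyte genes were faint, with 6 of 12 below background in both groups, and 5 of the 6 tested were higher in muscle, but 3 of 6 without the second muscle array and 3 of 6 with the mean over probes. Lck, a T cell kinase, did not pass (-0.23, adjusted p = 0.606). The summed lymphocyte level was 20 and 18.1 on the wild type muscle arrays, against 5.73 and 5.82 on the C2C12 arrays. Of smooth muscle and pericyte genes, the pericyte marker Rgs5 was at least 95.4-fold higher, and Cnn1, a smooth muscle calponin that immature muscle cells also make, was 19.6-fold lower, and the summed level of that list was 98.1 and 88.2 on the wild type muscle arrays, against 66.7 and 76.1 on the C2C12 arrays. The satellite cell list split, with 4 of 7 higher and 3 lower. Cd34, which vessels also make, was 4.25-fold higher, Vcam1, an adhesion molecule, 11-fold lower, and for Calcr the bound gave no fold. The Calcr call was lost without either wild type array, and with transgenic vehicle muscle in place of wild type 2 of 6 were higher and 3 lower, with a median of -0.05 in place of 1.87. None of the markers of these non-fibre cells enters the contractile or metabolic lists, and their part in the differences of those lists was not tested.

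Blood genes set the 2 muscle arrays apart from each other. Hba-a2, an alpha-globin gene, had 9.43 and 7.78 in wild type muscle, against -1.19 and -1.45 in C2C12 myotubes. Hba-a1, the other alpha-globin gene, had 7.82 and 6.20 in wild type muscle, against -2.38 and -2.03 in C2C12 myotubes, and the array may not separate the near-identical RNA of these genes. The first muscle array was more than 1.5 log2 units above the second for each. Hbb-bt, a beta-globin, had 6.41 and 4.53 in wild type muscle, against -4.85 and -4.22 in C2C12 myotubes, and Alas2, the haem enzyme of red cell precursors, had 1.66 and -0.05 in wild type muscle, against -3.10 and -4.44 in C2C12 myotubes. The first muscle array was again the higher. The summed erythroid level was 1005 and 317 on the wild type muscle arrays, against 0.949 and 0.837 on the C2C12 arrays. All 5 tested erythroid genes were above the C2C12 arrays on both muscle arrays.

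**Figure D4:**
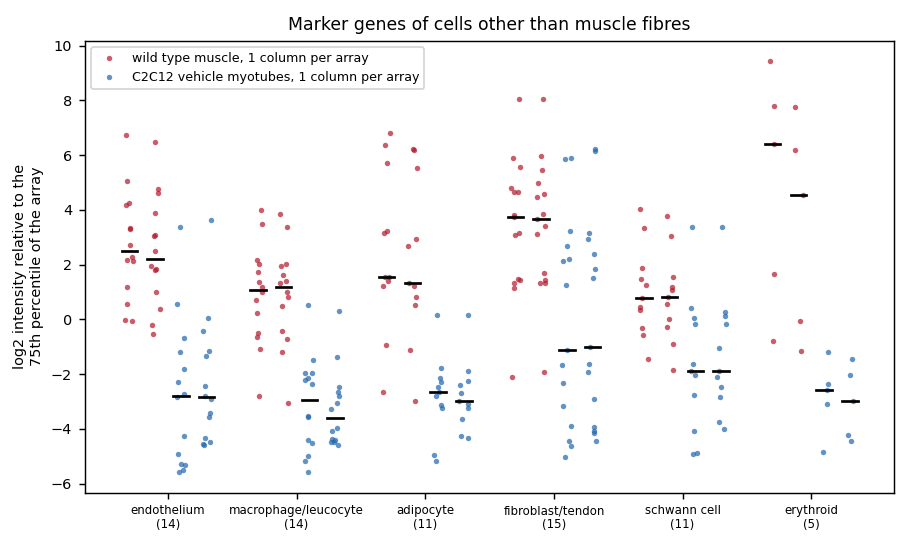
Each point is the log2 level of 1 tested marker gene on 1 array (y axis), with the 2 wild type muscle arrays in red to the left of the 2 C2C12 vehicle arrays in blue within each list, and black bars at the medians. The muscle medians lie above the C2C12 medians in all 6 lists, and the erythroid genes differ most between the 2 muscle arrays.

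Extracellular matrix was not higher in tissue. Of 24 tested matrix genes, 19 were lower in muscle and 4 higher. Timp1, an inhibitor of matrix proteases, had -0.82 and -0.51 in wild type muscle, against 6.15 and 6.27 in C2C12 myotubes (log2 difference -6.88 ± 0.13 SE, adjusted p = 2.55e-10). Tnc, tenascin C, was 39.1-fold lower, Postn, periostin, 24.8-fold lower, and Lox, the enzyme that crosslinks collagen, 22.9-fold lower. None of the 4 higher genes reached 4-fold. Outside this list, 2 small matrix proteins of the connective tissue list, Fmod, fibromodulin, and Lum, lumican, were 49.1-fold higher and at least 64-fold higher.

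Genes of cell division were lower in tissue almost without exception. All 30 tested DNA replication genes were lower (median -3.01), 26 by at least 4-fold. So were 29 of 31 mitosis genes (median -4.31, or -4.18 with bounds), every one of the 29 by at least 4-fold. Among all tested genes, 40.3% were lower and 13.6% lower by at least 4-fold. In each list a few more genes, 2 and 3, were below background in both groups. Rrm2, the ribonucleotide reductase subunit of S phase, had -0.49 and -0.63 in wild type muscle, against 5.35 and 5.37 in C2C12 myotubes (log2 difference -5.92 ± 0.12 SE, adjusted p = 2.60e-10). Birc5, survivin, had -0.64 and -0.59 in wild type muscle, against 4.74 on both arrays in C2C12 myotubes. Top2a, the topoisomerase of dividing cells, had -2.99 and -3.53 in wild type muscle, against 1.84 and 2.10 in C2C12 myotubes, and Cdk1, the kinase that starts mitosis, -3.78 and -3.92 in wild type muscle, against 1.73 and 0.86 in C2C12 myotubes. Above background on all 4 arrays were 27 of the 30 tested replication genes and 24 of the 31 tested mitosis genes. Of those, 27 and 23 were called lower. The other tested genes passed the filter through 1 group only, so their detection in that group was fixed in advance.

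The exceptions among mitosis genes were Aurka and Kif2c. Aurka, a spindle kinase, had 1.96 and 1.99 in wild type muscle, against 2.08 and 1.93 in C2C12 myotubes (-0.03, adjusted p = 0.806). Kif2c, a microtubule motor, differed between the muscle arrays more than between the groups, with -5.01 and -0.46 in wild type muscle, against -1.36 and -1.85 in C2C12 myotubes, and 1 muscle array above background. Its difference was 1.15 without the first muscle array and -3.41 without the second. With transgenic vehicle muscle in place of wild type, all 31 tested mitosis genes were lower (of 13465 genes tested in that fit 79.0% were called, 37.5% as lower), and the median was -6.06. Plk1, the polo-like kinase, had -1.86 and -1.68 in wild type muscle, -4.75 and -5.63 in transgenic vehicle muscle and 2.75 and 2.70 in C2C12 myotubes. Ccnb2, cyclin B2, had -0.76 and -0.79 in wild type muscle, -4.52 and -3.82 in transgenic vehicle muscle and 3.42 and 3.43 in C2C12 myotubes. Both genes were thus lowest in the transgenic muscle, and that difference between muscles was not tested here.

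Promoters of 4 mitosis genes that were lower together are printed below, again as the 250 bases before the start from RefSeq (GRCm38.p6), 5′ to 3′. Capitals mark CCAAT, the box bound by NF-Y, and TTTGAA, the cell cycle homology element, each on either strand (ATTGG and TTCAAA are their reverse complements).
Cdk1, chr10:69352913-69353162, minus strand: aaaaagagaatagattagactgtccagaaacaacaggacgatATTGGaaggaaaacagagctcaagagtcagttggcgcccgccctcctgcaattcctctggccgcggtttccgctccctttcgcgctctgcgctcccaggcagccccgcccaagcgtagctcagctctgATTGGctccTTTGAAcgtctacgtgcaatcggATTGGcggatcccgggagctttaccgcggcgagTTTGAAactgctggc
Top2a, chr11:99024190-99024439, minus strand: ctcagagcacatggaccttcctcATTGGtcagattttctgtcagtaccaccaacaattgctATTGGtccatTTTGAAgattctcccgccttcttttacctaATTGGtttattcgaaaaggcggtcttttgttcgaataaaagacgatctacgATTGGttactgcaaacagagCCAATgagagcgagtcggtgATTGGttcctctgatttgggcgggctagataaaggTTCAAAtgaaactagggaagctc
Ccnb2, chr9:70421555-70421804, minus strand: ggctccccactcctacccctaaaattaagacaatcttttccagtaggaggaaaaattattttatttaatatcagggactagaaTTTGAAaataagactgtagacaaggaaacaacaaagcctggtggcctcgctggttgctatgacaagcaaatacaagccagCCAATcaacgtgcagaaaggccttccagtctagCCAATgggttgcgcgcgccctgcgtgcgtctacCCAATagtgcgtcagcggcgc
Birc5, chr11:117848987-117849236, plus strand: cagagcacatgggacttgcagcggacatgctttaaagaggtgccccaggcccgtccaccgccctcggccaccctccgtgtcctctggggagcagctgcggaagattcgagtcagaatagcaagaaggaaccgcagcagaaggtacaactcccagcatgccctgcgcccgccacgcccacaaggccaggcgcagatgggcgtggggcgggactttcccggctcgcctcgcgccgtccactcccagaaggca
Cdk1 and Ccnb2 held 3 CCAAT matches each, Top2a held 6 and Birc5 held none. Of the mitosis list, 29 of 34 genes matched the table, with 31 promoters. CCAAT was found in 24 of those 31 (77.4%) and in 33.8% of all promoters, and TTTGAA in 11 (35.5%) and in 16% of all. In the replication list CCAAT was found in 17 of 31 promoters (54.8%). No CCAAT match overlapped a TTTGAA match in the mitosis promoters.

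Inhibitors of the cell cycle did not move as 1 group. Cdkn1a, the inhibitor p21 that rises when myoblasts differentiate, had 1.90 and 0.58 in wild type muscle, against 6.71 and 6.94 in C2C12 myotubes, 48-fold lower (adjusted p = 1.99e-07), although the muscle arrays themselves differed by 1.31. Cdkn1c, the inhibitor p57, had 3.96 and 3.60 in wild type muscle, against -3.08 and -3.02 in C2C12 myotubes, at least 88.2-fold higher. Ccnd3, the D-type cyclin of differentiated muscle cells, was 5.1-fold lower. Rb1, the retinoblastoma gene, was lower (-1.23) and its relative Rbl2 higher (2.64, 1 C2C12 array above background). Over the list of 20, 6 genes were higher, 11 lower and 3 not called, where 38.6% of all tested genes were higher and 40.3% lower.

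The non-muscle cytoskeleton and the growth machinery were also lower in tissue. All 21 cytoskeletal genes were lower, 18 by at least 4-fold (median -3.36). Tmsb10, a thymosin that binds free actin, had 4.26 and 4.15 in wild type muscle, against 9.23 and 9.50 in C2C12 myotubes, and S100a4, a calcium-binding partner of non-muscle myosin, 2.40 and 2.52 in wild type muscle, against 7.96 and 8.19 in C2C12 myotubes. Actb, beta-actin, differed less (-1.96). Of 20 ribosome assembly genes 18 were lower, with the snoRNP protein Nop58 at 8.38-fold lower.

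Ribosomal proteins differed by little: 55 of 74 were called lower and none higher (3 higher without the second C2C12 array), 6 passed 4-fold, and the median was -0.73. With transgenic vehicle muscle in place of wild type, 23 of 73 were higher (41.4% of all genes were in that fit), 9 lower, and the median was 0.17. The small shift of this list therefore rests on which muscle group is taken. Those groups differ in transgene, injection, slide entry and scan session, which cannot be told apart.

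The series was built around PERK signalling, and neither wild type muscle nor the vehicle-treated myotubes received AP20187. Of 21 listed targets of the integrated stress response, in which phosphorylated eIF2alpha slows translation and favours the factor ATF4, 19 were tested, 13 were lower (40.3% of all tested genes were) and 6 higher in wild type muscle, and the median log2 difference was -1.35. Asns, asparagine synthetase and a standard ATF4 target, had 0.65 and 0.30 in wild type muscle, against 6.02 and 5.95 in C2C12 myotubes (log2 difference -5.51 ± 0.13 SE, adjusted p = 7.25e-10). Trib3, a pseudokinase that feeds back on ATF4, had 0.10 and -0.41 in wild type muscle, against 4.23 and 4.31 in C2C12 myotubes. The secreted factors Fgf21 and Gdf15 were below background in wild type muscle and at least 74.4-fold lower and at least 34.3-fold lower. In the authors' deposited values these differences kept their sign. Those of Fgf21, Gdf15 and Trib3 were -7.35, -5.31 and -4.39 there, against -7.39, -5.35 and -4.43 in the main fit. They did not pass in the authors' values, with limma adjusted p of 0.778, 0.111 and 0.19, and the reason was not tested.

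Other genes of the list differed less or the other way. Atf4 itself was lower by little (-0.54, adjusted p = 0.00149), and Ddit3, the factor CHOP, by more (-1.67), but both were above C2C12 in transgenic vehicle muscle (0.99 and 0.26). Chac1, a glutathione-degrading ATF4 target, had 5.47 and 5.35 in wild type muscle, against 4.07 and 4.12 in C2C12 myotubes, and was 2.49-fold higher. Cebpb, a transcription factor, was 5.5-fold higher. Vldlr, a lipoprotein receptor, was at least 359.9-fold higher. Adm2 and Slc7a11 were below background in both groups.

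The direction of most of these differences depended on the muscle group used: of the 13 genes lower in wild type muscle than in C2C12, 10 lay above C2C12 in transgenic vehicle muscle. The muscle groups differ in transgene, injection, slide entry and scan session, and these cannot be told apart here. Fgf21 had -4.18 and -6.42 in wild type muscle, 5.89 and 6.01 in transgenic vehicle muscle and 2.41 and 1.77 in C2C12 myotubes. Asns had 0.65 and 0.30 in wild type muscle, 6.03 and 6.24 in transgenic vehicle muscle and 6.02 and 5.95 in C2C12 myotubes. Trib3 had 0.10 and -0.41 in wild type muscle, 7.53 and 7.66 in transgenic vehicle muscle and 4.23 and 4.31 in C2C12 myotubes. The transgenic muscle received vehicle, not AP20187, and it stood at or above the myotubes for these 3 genes while wild type muscle stood below them. With transgenic vehicle muscle in place of wild type, 15 of 21 tested targets were higher than in C2C12 and 4 lower, with a median of 1.58. Both fits share the 2 C2C12 arrays.

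**Figure D5:**
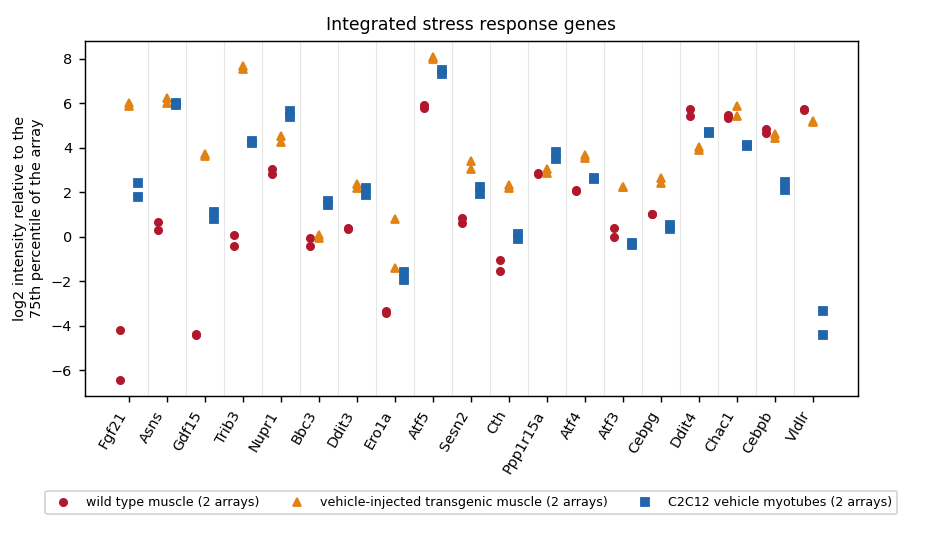
Log2 level (y axis) of the 19 tested integrated stress response genes on each array, with red circles for wild type muscle, orange triangles for vehicle-injected transgenic muscle and blue squares for C2C12 vehicle myotubes, 2 arrays each, ordered by the wild type muscle minus C2C12 difference. Fgf21, Asns, Gdf15 and Trib3 are low in wild type muscle, and transgenic muscle is at or above C2C12 for these 4 genes.

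The kinases that phosphorylate eIF2alpha differed among themselves. Eif2ak2, the RNA-activated kinase PKR, was 6.96-fold lower, and Eif2ak4, the amino acid sensor GCN2, 2.41-fold lower. Eif2ak3, PERK, had -1.35 and -1.27 in wild type muscle, against 0.38 and 0.18 in C2C12 myotubes (log2 difference -1.59 ± 0.19 SE, adjusted p = 3.36e-05). The C2C12 cells carry the PERK fusion, and whether this probe reads it was not tested. Eif2ak1, the haem-regulated kinase, was the 1 higher, 2.52-fold higher. Eif2s1, eIF2alpha itself, differed by -0.29 (adjusted p = 0.0265), by 0.67 with transgenic vehicle muscle in place of wild type, and was not called without either wild type array.

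Genes of amino acid supply went both ways. Of 18 synthesis genes, 10 were lower and 7 higher, where 40.3% of all tested genes were lower and 38.6% higher. Phgdh, the first enzyme of serine synthesis, had 1.61 and 1.32 in wild type muscle, against 5.85 and 6.08 in C2C12 myotubes, and Mthfd2, of mitochondrial one-carbon metabolism, -1.46 and -1.79 in wild type muscle, against 3.16 and 2.89 in C2C12 myotubes. Mthfd2 was 25.1-fold lower, but was 0.74 log2 units higher in transgenic vehicle muscle than in C2C12. The transaminases Got1 and Gpt2, which handle nitrogen in working muscle, and Glul, glutamine synthetase, were higher in wild type muscle (6.81-fold higher, 7.12-fold higher and 9.47-fold higher).

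Among transporters, Slc7a5, the LAT1 carrier of large neutral amino acids, was 32.7-fold lower on its brighter probe, but its other probe gave a difference of 1.05. Slc38a4, a system A carrier, was at least 52.1-fold higher. Of 20 cytosolic tRNA synthetases 13 were lower, 1 of them by at least 4-fold, and 1 was higher. With transgenic vehicle muscle in place of wild type, 11 were higher and 6 lower. Over all tested genes, 40.3% were lower and 38.6% higher with wild type muscle, and 37.5% and 41.4% with transgenic vehicle muscle.

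Chaperones of the endoplasmic reticulum were lower in both kinds of muscle. In wild type muscle, 20 of 23 were lower than in C2C12, 10 by at least 4-fold, with a median of -1.73, and in transgenic vehicle muscle 17 of 23 were lower and 4 higher, with a median of -1.20. Hspa5, the chaperone BiP, had 5.08 and 5.13 in wild type muscle, against 7.37 and 7.15 in C2C12 myotubes, 4.44-fold lower. Manf, a secreted ER stress protein, was 11.1-fold lower. Herpud1 (1.41), Dnajb9 (1.81) and Sel1l (0.92), which act in ER-associated degradation or BiP regulation, were the 3 higher.

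Small heat shock proteins, which guard filament proteins, were all higher (7 of 7, median 2.69). Hspb6 had 8.58 and 8.16 in wild type muscle, against 2.19 and 2.34 in C2C12 myotubes, 68.7-fold higher, and Hspb7 was 50.4-fold higher with 1 C2C12 array above background. Cytosolic heat shock genes went both ways, with 6 of 15 higher and 6 lower, close to the shares over all tested genes (38.6% and 40.3%). Hsp90aa1, the inducible HSP90, was 7.65-fold lower, and the testis-type HSP70 gene Hspa1l at least 21.6-fold higher. Of 21 tested NRF2 and antioxidant genes, 11 were higher and 6 lower, where 38.6% of all tested genes were higher and 40.3% lower. Their median was 0.42, and 4 were higher by at least 4-fold. Gpx3, a glutathione peroxidase of the extracellular space, was at least 97-fold higher.

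Genes of muscle mass and of daily rhythm were higher in tissue. Of 17 tested atrophy and autophagy genes 13 were higher, 9 by at least 4-fold. Trim63, the ubiquitin ligase MuRF1, had 6.22 and 6.36 in wild type muscle, against 1.01 and 1.11 in C2C12 myotubes, 37.5-fold higher. Fbxo32, the ligase atrogin-1, had 3.12 and 4.25 in wild type muscle, against -0.35 and -0.25 in C2C12 myotubes, with a spread between the muscle arrays like that of Pdk4. Mstn, myostatin, the inhibitor of muscle growth, was at least 55.4-fold higher. Of 15 clock genes 13 were higher, with Dbp, a clock output factor, at 5.04 and 5.12 in wild type muscle, against 1.12 and 1.41 in C2C12 myotubes. The time of day at collection is not in the labels, and Clock itself was lower (-0.92, with no call in transgenic vehicle muscle).

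Of 18 tested secreted factors, 11 were lower and 6 higher in muscle, where 40.3% of all tested genes were lower and 38.6% higher. Inhba, the activin A subunit, had -1.09 and -1.42 in wild type muscle, against 3.33 and 3.48 in C2C12 myotubes, 25.2-fold lower, and Fst, follistatin, which binds activin and myostatin, was also lower (-3.41). Ostn, the bone-acting hormone osteocrin, was at least 15.7-fold higher. A separate list held immediate early and mechanically responsive genes. Of 12 tested there, 7 were lower, 2 higher and 3 not called, with a median of -0.87. Ankrd1, a stretch-responsive nuclear protein, was 55.8-fold lower, and the immediate early genes Egr1 and Junb were 7.41-fold lower and 8.19-fold lower. The shares over all tested genes are those given above.

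Genes that mark the origin of the cells also differed. Xist, the RNA of the inactive X chromosome, had -6.21 and -6.36 in wild type muscle, against 1.76 and 1.49 in C2C12 myotubes, and was at least 53.9-fold lower. The Y-linked genes Ddx3y and Eif2s3y were at least 34.9-fold higher and at least 41-fold higher, and Kdm5d and Uty were below background in both groups. Xist was below background and both Y-linked genes were above it on the muscle arrays, which are labelled male, and no label gives the sex of the cell line. The list of Hox and limb genes was mixed. Of 18 tested, 9 were higher, 5 lower and 4 not called, with a median of 0.40, where 38.6% of all tested genes were higher and 40.3% lower. The position genes Hoxd8 and Hoxd9 were at least 33-fold higher and at least 20.6-fold higher. Hoxa13, a gene of the distal limb, was at least 6.63-fold lower on its brighter probe. Its difference was of opposite sign on another probe, and it had no call when its probes were averaged.

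Several of the largest differences fell outside the lists of muscle biology. Lower in muscle with a bound were Aqp5, a water channel of glands (at least 906-fold lower), Syt13, a synaptotagmin (at least 368-fold lower), Ifi202b, an interferon-inducible gene (at least 345-fold lower), and Magea8 and Magea1, members of a family otherwise known from testis and tumours (at least 189-fold lower and at least 111-fold lower). Aqp5 had -4.27 and -5.48 in wild type muscle, against 5.65 and 5.75 in C2C12 myotubes. Actg2, smooth muscle gamma-actin, had -1.19 and -1.73 in wild type muscle, against 7.39 and 7.89 in C2C12 myotubes, the largest measured lower difference (-9.10), and the WNT ligand Wnt10a had -2.15 and -2.72 in wild type muscle, against 5.67 and 5.89 in C2C12 myotubes. Isg15, an interferon-induced ubiquitin-like protein, was 27-fold lower. Both C2C12 arrays lay above both muscle arrays for each of these genes.

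Higher in muscle with a bound were Smtnl2, a smoothelin-like protein (log2 bound 10.18), Sparcl1, a matrix protein of vessels (at least 600.4-fold higher), Mlf1 (at least 458-fold higher) and Myadml2 (at least 469.6-fold higher). Chchd10, a mitochondrial intermembrane protein, had 10.40 and 10.33 in wild type muscle, against 0.45 and 0.71 in C2C12 myotubes, and Ndrg2, a differentiation-linked gene of muscle and brain, 8.37 and 8.39 in wild type muscle, against -0.74 and -1.30 in C2C12 myotubes. Of 11 imprinted genes, 8 were higher and 2 lower, where 38.6% of all tested genes were higher and 40.3% lower. The 2 lower were Peg3 (-3.87, 1 muscle array above background) and Igf2 (-2.22). Dlk1 had -0.43 and -0.21 in wild type muscle, against -4.71 and -1.84 in C2C12 myotubes, and Meg3 had -0.15 and 0.52 in wild type muscle, against -2.44 and -4.36 in C2C12 myotubes, with wide spread between the C2C12 arrays and 1 of them above background.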

How the data were processed

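RNA from 4 samples was read on 1-colour Agilent arrays. The deposited scanner files hold the processed intensity of each spot, already background-corrected, and the file headers name Agilent Feature Extraction 10.7.1.1 as the software. The authors also deposited a table of log2 values of the same arrays. Set against the scanner values, the table gave the same differences between arrays (r of at least 0.9999). Wild type muscle columns had medians of -0.46 and -0.45, C2C12 columns 0.34 and 0.70, the centring is unknown, and the table served as an alternative.

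From the intensities, control spots and outlier-flagged spots were left out, log2 values were taken relative to the 75th percentile of each array, and spots of a probe were averaged. Symbols came from the probe accessions through a RefSeq gene table (GRCm38.p6), which named 26056 of 55681 probes and 19752 genes. Genes with several probes (5270) are given by 1 probe, the one with a value on all arrays and the highest mean. The filter kept genes called above background by the scanner software on both arrays of at least 1 group. No spot was saturated. Limma 3.58.1 (R 4.3.3) with a trended variance was fitted to the 4 arrays with 2 residual degrees of freedom, and p-values were Benjamini-Hochberg adjusted over 13836 genes. The step was tested on simulated data.

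The groups and the 51 gene lists were chosen with earlier results of these data known. Genes were named by rule: the 8 largest measured differences and the 8 largest bounds in each direction, up to 4 called members of each list with the largest differences, and all members of the isoform, myogenic factor, sex chromosome, eIF2alpha kinase and stress target lists. A further 45 genes, chosen after their values were seen, are Ache, Acta2, Actb, Aurka, Cacna1s, Calcr, Casq2, Ccnb2, Ccnd3, Clock, Dnajb9, Dysf, Glul, Got1, Gpt2, Herpud1, Hspa5, Igf2, Kcnj2, Kdr, Kif2c, Klhl41, Lck, Lep, Lmod3, Musk, Nes, Pdk4, Pdlim7, Phka1, Phka2, Plk1, Ppargc1a, Ppargc1b, Rb1, Rrad, Scd1, Scd2, Scx, Sel1l, Tnnc1, Tnnc2, Tpm1, Ttn and Ucp3.

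Alternatives were quantile normalization, normexp background correction, the percentile over detected probes, the authors' table, other filters, kept flags, the mean over probes, all 10 arrays in the fit, transgenic vehicle muscle in place of wild type, a replicate block and each array left out. The files hold no mean signal, so normexp used the median signal and median background. The number of arrays limits the precision, and so do the background floor, flagged spots and probes that disagree. Results for a few genes that the rule names are not reported here.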

Additional observations from a re-analysis of the deposited data

How the results depend on the processing

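Groups of 2 arrays leave few degrees of freedom, and the higher floor of the C2C12 arrays limits folds of genes dim in culture. Neither count of calls over all genes moved by over 1.5 times except with no filter on dim probes, where 9735 of 19750 genes were lower (35.5% of calls higher); that setting tests probes below background in both groups. Counts within some lists moved more, as with transgenic vehicle muscle in place of wild type, where lower ribosomal protein genes were 9 in place of 55, higher stress targets 15 in place of 6 and higher tRNA synthetases 11 in place of 1. Over the other alternatives the count of higher genes lay between 3561 and 5636 and that of lower genes between 4945 and 5694. Without each array in turn, higher counts ranged from 4666 to 5448 and lower counts from 5188 to 5643, the lone remaining sample of a group being assumed to vary like the other group. Of 310 named genes with a call, 275 kept it in the same direction under every alternative run and 35 did not.

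Directions that changed were as follows, and the cause was not tested. Actc1 (0.42) was -0.70 after quantile normalization, -0.60 after normexp and -2.76 with transgenic vehicle muscle. The mean over probes gave Mef2a -0.19 and Pdlim7 -1.22. With transgenic vehicle muscle in place of wild type, differences from C2C12 were 0.15 for Asns, 0.99 for Atf4, 0.64 for Atf5, 2.24 for Cth, 0.26 for Ddit3, -0.69 for Ddit4, 0.67 for Eif2s1, 1.47 for Ero1a, 3.86 for Fgf21, 2.70 for Gdf15, 0.74 for Mthfd2, 1.14 for Sesn2, -0.36 for Tfrc, 0.42 for Tnnt1 and 3.32 for Trib3.

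Wild type and C2C12 arrays share replicate numbers in their titles, but their deviations from the group means did not go together (r = -0.06 over 13806 genes). Same-numbered arrays thus had no common shift across genes, and this value cannot show whether they were handled together. With the replicate block, 5288 genes were higher and 5503 lower. A fit with slide or scan session as a block was not possible, since wild type muscle and C2C12 vehicle arrays shared neither.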
